A study of Homo sapiens with 2 samples.

Results

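Smooth-muscle type contractile genes encode the actin, myosin and regulatory proteins with which smooth muscle cells and myofibroblasts shorten. The 10 genes examined were ACTA2, ACTG2, TAGLN, CNN1, MYL9, CALD1, TPM1, TPM2, MYH11 and MYLK, chosen by name from the 57736 genes of an RNA-Seq count table and found by Ensembl identifier. Earlier results of these data were known when they were chosen, so comparisons of them with all genes are descriptions and not tests. RNA-Seq was performed on A1847, a human epithelial ovarian cancer cell line with high CARM1, an enzyme that methylates proteins on arginine. The control group was parental cells, labelled CARM1 wild type. The other group was CARM1 knockout (CARM1 KO) cells, a single clone made with a lentiviral CRISPR vector carrying a guide RNA to CARM1. Both were grown in the same serum-supplemented medium, and no inhibitor treatment is named for either. The study's methods name puromycin selection for cells given viruses with a puromycin resistance gene. Whether the clone was selected in this way is not stated. Each group was 1 library, so nothing below has a replicate check, and loss of CARM1 and the derivation of the clone cannot be told apart.

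In smooth muscle, myosin filaments pull on filaments of a muscle-type actin when myosin light chain kinase, switched on by calcium and calmodulin, phosphorylates the regulatory light chain of myosin. Tropomyosin, caldesmon, calponin and transgelin lie along the actin filament and tune this pull or stiffen the filament. Many of these genes are controlled by serum response factor (SRF), which binds a short sequence called the CArG box together with the coactivators myocardin or MRTF, and several of the proteins are also made by other cells with stress fibres.

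The parental library totalled 30741953 reads and the CARM1 KO library 32300391. Below, parental and KO reads are the reads of a gene in these libraries. Folds compare CARM1 KO with parental cells after TMM scaling in edgeR, and the interval beside a fold is its exact 95% binomial interval, which covers counting error alone. CARM1, the targeted gene, had 975 parental and 380 KO reads and was 2.65-fold lower (interval 2.35 to 2.99). A gene is called higher or lower where its fold passed 3, the fold threshold of the study's methods, and the interval left out 1. By this rule 12.3% of the 18563 genes tested, those with 10 or more reads over the pair of libraries, were higher and 11.3% were lower. Of the 9699 genes with 500 or more reads over the pair, a depth that all 10 contractile genes reached, 7.07% were higher and 5.37% lower. This depth was chosen after the data were seen. ACTA2, ACTG2, MYH11 and CNN1 reached it through their parental reads, and MYLK through its KO reads.

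All 10 contractile genes were tested, and 6 were lower in CARM1 KO cells, 1 was higher and 3 were neither. ACTA2, ACTG2, MYH11 and CNN1 had at most 74 reads in the knockout, and TAGLN and MYL9 were lower by less. TPM1, TPM2 and CALD1 stayed within 3-fold, and MYLK was higher. The median log2 fold change of the 10 genes was -2.71, beside -0.04 for all genes tested. Their reads summed to 96818 in parental and 43924 in CARM1 KO cells. In bulk RNA, fewer cells that make an RNA and less RNA per cell cannot be told apart. With edgeR's exact test at an assumed coefficient of variation of 0.12, a Benjamini-Hochberg FDR under 0.05 and over 3-fold, 6 contractile genes were lower and 1 higher, beside 10.6% of all genes lower. At a coefficient of 0.4 the counts were 5 lower and 0 higher, beside 4.82% of all genes lower, and MYL9 and MYLK no longer passed.

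**Figure D1:**
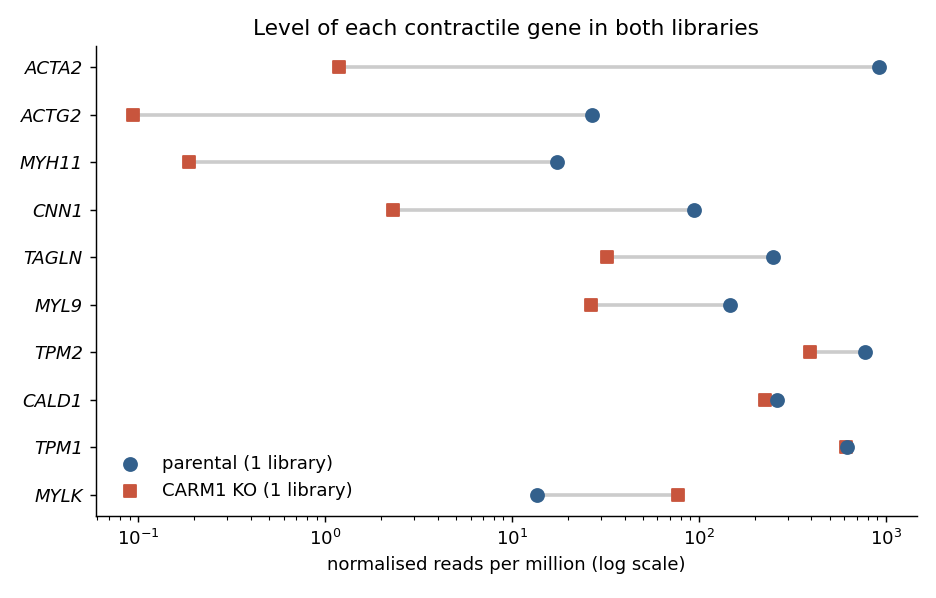
Normalised CPM (log scale, horizontal) of each contractile gene in the parental library (circles) and the CARM1 KO library (squares), 1 library each, without error bars. ACTA2 stood at 921 in parental and 1.19 in CARM1 KO cells, TPM1 at 618 and 616, and MYLK at 13.5 and 77.4.

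The muscle-type actins ACTA2 and ACTG2 had the most negative log2 fold changes of the 10 genes. ACTA2 encodes the alpha actin of smooth muscle, a widely used marker of smooth muscle cells and myofibroblasts (ENSG00000107796, chromosome 10, 90694831 to 90751096, GRCh37, minus strand). It had 28564 parental and 38 KO reads and was 776-fold lower (interval 565 to 1097). Among all genes tested, 28 had a more negative log2 fold change. Ranked per kilobase of canonical transcript among protein-coding genes, ACTA2 went from number 51 in parental to number 10715 in CARM1 KO cells. ACTG2 encodes the gamma actin of visceral smooth muscle (ENSG00000163017, chromosome 2, 74119441 to 74146992, plus strand). It had 834 parental and 3 KO reads and was 287-fold lower (interval 97.9 to 1395), an interval widened by the few reads of the knockout.

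The other actins did not fall. ACTB and ACTG1, the cytoplasmic actins of nearly all cells, were 1.30-fold higher (interval 1.29 to 1.32) and 1.28-fold higher (interval 1.27 to 1.30), under the threshold. ACTC1, the alpha actin of heart muscle, had 14 parental and 626 KO reads and was 43.3-fold higher (interval 25.6 to 79.7). ACTA1, the alpha actin of skeletal muscle, had 2 and 3 reads, too few for a fold.

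Within the actin family, levels were compared per kilobase of canonical transcript. ACTA2 went from 27.3% to 0.0376% of all actin between parental and CARM1 KO cells, ACTG2 from 0.717% to 0.00266% and ACTC1 from 0.0131% to 0.604%. ACTB made up the largest share in both, from 43.2% to 60.0%. The family's summed level in the knockout was 0.938 times the parental level. With the length of all annotated exons in place of the canonical transcript, ACTA2 went from 17.1% to 0.0206% and the summed level was 1.07 times the parental one.

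The start regions of ACTA2, ACTG2 and ACTC1 are shown because the first pair was lower and ACTC1 higher in CARM1 KO cells, while all carry CArG-type letters. RefSeq windows from 250 bases before to 50 bases after an annotated start were searched on both strands for the CArG box, for CATTCC, a site known to bind TEAD factors, and for TATAAA. The share of all 35116 windows with a perfect CArG box was 1.29%, that with TATAAA was 11.5%, and 4928 windows held CATTCC. Each sequence is the 150 bases before the start, 5′ to 3′ along the gene, from RefSeq windows of GRCh38.p14 that matched GRCh37 exactly at 1 place. Capitals mark CArG boxes, perfect or with 1 base other than A or T in the centre, and TATAAA on either strand. All these starts lie inside the outermost bounds that the annotation gives the gene. In GRCh37, the ACTA2 stretch is chr10:90712531-90712680 on the minus strand, the ACTG2 stretch chr2:74119985-74120134 on the plus strand and the ACTC1 stretch chr15:35087751-35087900 on the minus strand.
ACTA2: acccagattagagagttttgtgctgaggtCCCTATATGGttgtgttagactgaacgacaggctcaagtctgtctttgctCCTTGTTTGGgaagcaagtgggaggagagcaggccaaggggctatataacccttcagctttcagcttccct
ACTG2: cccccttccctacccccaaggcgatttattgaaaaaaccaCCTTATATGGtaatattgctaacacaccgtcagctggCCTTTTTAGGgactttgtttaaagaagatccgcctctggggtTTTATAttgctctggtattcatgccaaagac
ACTC1: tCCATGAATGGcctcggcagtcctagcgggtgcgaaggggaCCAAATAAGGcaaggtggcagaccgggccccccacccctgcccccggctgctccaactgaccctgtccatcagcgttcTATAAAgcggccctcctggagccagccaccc

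ACTG2 had perfect CArG boxes 110 and 73 bases before its start. ACTC1 had a perfect box 109 bases before its start, and boxes with 1 other base at 149, 200 and 237 bases. The ACTA2 boxes, 121 and 71 bases before the start, each held 1 other base, a pattern in 6.94% of all windows. Perfect boxes also lay in actin windows not shown, 94 bases before the start of ACTG1 and 97 bases before that of ACTA1. ACTG1 was under the threshold and ACTA1 had too few reads for a fold. TATAAA lay 31 bases before the start in ACTC1 and, on the other strand, in ACTG2. Binding at these letters was not measured in the data used here.

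The proteins that lie along the thin filament were divided. CNN1 encodes basic calponin, which binds actin and slows myosin (ENSG00000130176, chromosome 19, 11649582 to 11661138, plus strand). It had 2905 parental and 74 KO reads and was 40.5-fold lower (interval 32.2 to 51.8). Its paralogs stayed under the threshold, with CNN2 2.47-fold lower (interval 2.30 to 2.65) and CNN3 2.23-fold higher (interval 2.18 to 2.28). As a share of all calponin per kilobase, CNN1 went from 23.9% to 0.410% and CNN3 from 61.4% to 95.4%.

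TAGLN encodes transgelin, also called SM22-alpha, an actin-binding protein and early marker of smooth muscle (ENSG00000149591, chromosome 11, 117070086 to 117078180, plus strand). It had 7769 parental and 1034 KO reads and was 7.76-fold lower (interval 7.27 to 8.29). TAGLN2, a paralog made in many cell types, had 2546 parental and 10366 KO reads and was 3.94-fold higher (interval 3.77 to 4.12). TAGLN went from 52.6% to 3.50% of all transgelin per kilobase and TAGLN2 from 47.4% to 96.5%, while TAGLN3 had 0 parental reads and 1 KO read. The summed transgelin level per kilobase in the knockout was 1.94 times the parental level. This value and the shares depend on the lengths used, since the canonical transcript of TAGLN has 3786 bases and that of TAGLN2 1375. As a share of the family's reads without any length, TAGLN went from 75.3% to 9.07% and TAGLN2 from 24.7% to 90.9%.

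Tropomyosins and caldesmon stayed within 3-fold. TPM1, the gene of alpha tropomyosin (ENSG00000140416, chromosome 15, 63334819 to 63364114, plus strand), had 19174 parental and 19717 KO reads and a KO to parental fold of 0.996 (interval 0.976 to 1.02). TPM2, the gene of beta tropomyosin (ENSG00000198467, chromosome 9, 35681989 to 35690053, minus strand), had 23896 parental and 12507 KO reads and was 1.97-fold lower (interval 1.93 to 2.02). CALD1 encodes caldesmon, which lies on actin and inhibits myosin (ENSG00000122786, chromosome 7, 134429003 to 134655480, plus strand). It had 8146 parental and 7217 KO reads and was 1.17-fold lower (interval 1.13 to 1.203). TPM1, TPM2 and CALD1 have muscle and general isoforms made by splicing, which gene counts do not separate. The other tropomyosins were under the threshold too, with TPM3 1.04-fold lower (interval 1.02 to 1.05) and TPM4 1.22-fold lower (interval 1.196 to 1.25). Per kilobase, TPM2 went from 41.6% to 27.7% of all tropomyosin and TPM1 from 32.6% to 42.7%. These shares depend on the length used, since the canonical transcript of TPM1 has 1217 bases and all its annotated exons 14700, and with the latter TPM1 went from 10.3% to 15.1% and TPM2 from 59.2% to 44.2%, so that TPM2 was the larger of the pair in both libraries.

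**Figure D2:**
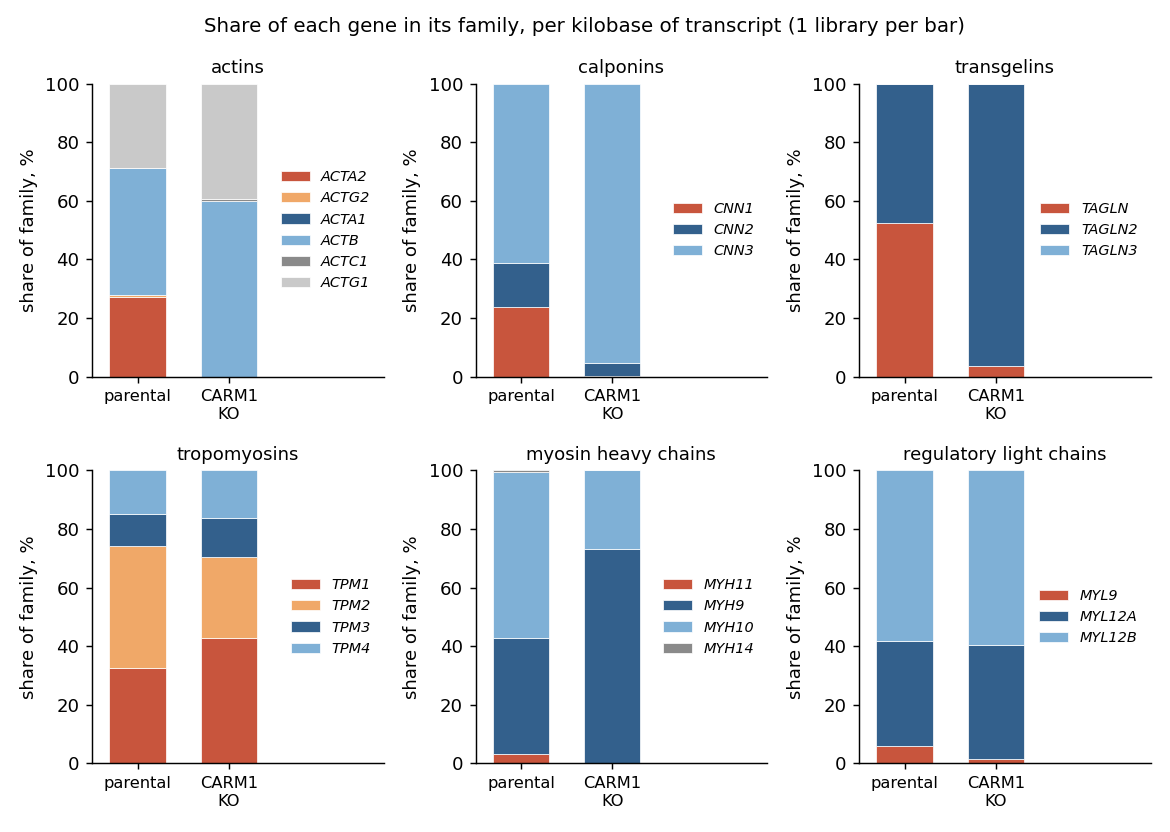
Share of each gene in its protein family in the parental and CARM1 KO libraries, in percent of the family's reads per kilobase of canonical transcript, 1 library per bar. ACTA2, CNN1 and TAGLN fill 27.3%, 23.9% and 52.6% of their parental bars and 0.0376%, 0.410% and 3.50% of the CARM1 KO bars.

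Among the motor proteins, MYH11 encodes the smooth muscle myosin heavy chain, a restricted marker of smooth muscle (ENSG00000133392, chromosome 16, 15796992 to 15950885, minus strand). It had 538 parental and 6 KO reads and was 92.6-fold lower (interval 42.3 to 253). Even in parental cells it was 3.22% of the non-sarcomeric heavy chain per kilobase. The nonmuscle chain MYH9 had 7148 parental and 18529 KO reads and was 2.51-fold higher (interval 2.44 to 2.58), and MYH10 had 10647 parental and 6998 KO reads and was 1.57-fold lower (interval 1.52 to 1.62), both under the threshold. Per kilobase of canonical transcript MYH9 went from 39.5% to 73.2% of the family and MYH10 from 56.8% to 26.7%. By the length of all exons MYH9 was the larger in both libraries, going from 53.5% to 83.5%, with MYH10 from 41.5% to 16.4%. MYH14, another nonmuscle chain, had 85 parental reads and 1 KO read and was 87.8-fold lower (interval 15.3 to 3507).

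MYL9 encodes the regulatory light chain that myosin light chain kinase phosphorylates (ENSG00000101335, chromosome 20, 35169900 to 35179850, plus strand). It had 4572 parental and 850 KO reads and was 5.55-fold lower (interval 5.16 to 5.98). The paralogs made in most cells were under the threshold, with MYL12A 1.36-fold lower (interval 1.32 to 1.40) and MYL12B 1.42-fold lower (interval 1.39 to 1.45). As a share of all regulatory light chain, MYL9 went from 5.82% to 1.53% per kilobase of canonical transcript and from 10.3% to 2.82% by the length of all exons. The essential light chains, which brace the myosin neck, were under the threshold as well, MYL6 being 1.77-fold higher (interval 1.74 to 1.80) and MYL6B 1.30-fold higher (interval 1.17 to 1.43).

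MYLK, which encodes myosin light chain kinase, was the member that rose (ENSG00000065534, chromosome 3, 123328896 to 123603179, minus strand). It had 420 parental and 2478 KO reads and was 5.71-fold higher (interval 5.15 to 6.35). MYLK3, the kinase of heart muscle, had 182 parental and 35 KO reads and was 5.37-fold lower (interval 3.72 to 7.95). MYLK2, the kinase of skeletal muscle, had 6 and 9 reads and MYLK4 had 13 and 24, and neither passed the threshold. MYLK also makes telokin, a short smooth muscle protein from a start inside the gene, and gene counts do not separate its products. The RefSeq window of MYLK is also at a start inside the gene, and it is shown because MYLK rose and the window held a perfect CArG box, 94 bases before that start. The outermost start of the gene is at 123603179, so this window lies near the gene's other end. Which start the added reads of the knockout came from cannot be told from gene counts. It is chr3:123339396-123339545 on the minus strand of GRCh37, with capitals as above.
MYLK: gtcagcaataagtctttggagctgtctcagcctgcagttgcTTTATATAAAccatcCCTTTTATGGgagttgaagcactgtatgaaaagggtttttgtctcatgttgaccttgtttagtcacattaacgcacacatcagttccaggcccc

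RefSeq windows were found for 7 of the 10 contractile genes, 12 windows in all. A perfect CArG box was in those of ACTG2 and MYLK, 2 of the 12 windows, beside 1.29% of all windows. With 1 other base allowed it was also in those of ACTA2 and CALD1, making 4 of the 12, beside 8.13% of all windows. In CARM1 KO cells these genes were lower (ACTG2 and ACTA2), higher (MYLK) and neither (CALD1). CATTCC was found for ACTA2, CALD1 and MYLK, in 4 of the 12 windows, and TATAAA for ACTG2, CALD1 and MYLK, in 3 of the 12. TAGLN, MYL9 and MYH11 were not searched.

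**Figure D3:**
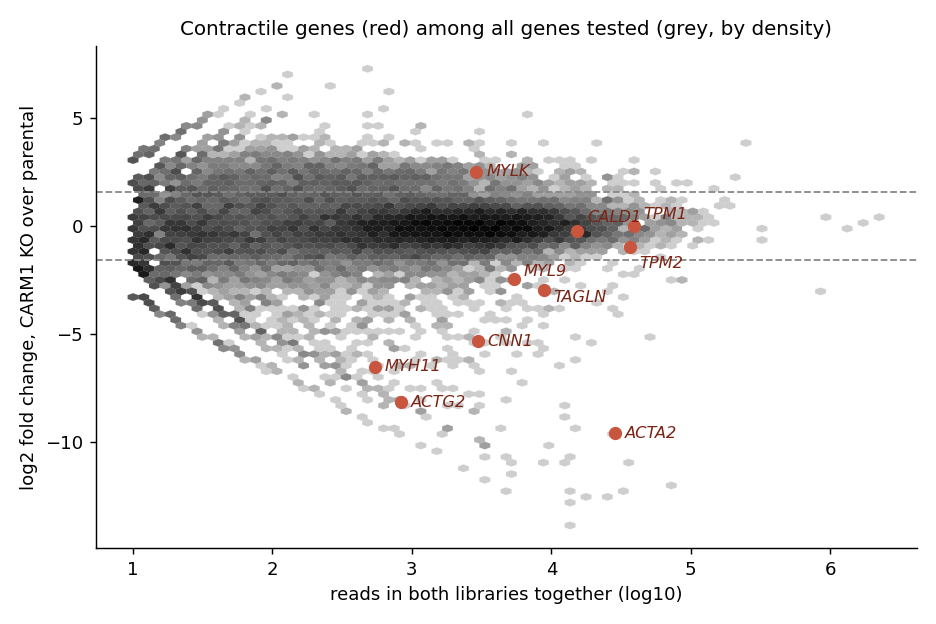
Log2 fold change of CARM1 KO over parental (vertical) against reads of both libraries (log scale, horizontal) for all 18563 genes tested, with the 10 contractile genes marked and dashed lines at 3-fold. ACTA2 lies at -9.60 and CNN1 at -5.34, below the lower line, while TPM1 at -0.01, CALD1 at -0.22 and TPM2 at -0.98 lie between the lines.

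Some reads of these genes could belong to others. Stretches of 75 bases, the read length, were taken along each canonical transcript and looked up in the transcripts of other genes on either strand. For ACTG2, CNN1, MYL9, CALD1, TPM1 and TPM2, 0 stretches occurred elsewhere. For ACTA2, 26.7% occurred in its antisense RNA ACTA2-AS1, which had 79 parental and 3 KO reads, and none in another actin. MYH11 shared 9.39% with NDE1, MYH9 and 2 unnamed genes, and MYLK shared 4.40%. TAGLN shared 82.3%, with PCSK7 on the opposite strand and 2 unnamed genes. The unnamed ENSG00000280143 overlaps TAGLN on the same strand but is absent from the count table. The share in the authors' counting may thus be smaller. PCSK7 had 1392 parental and 1001 KO reads. Exons outside the canonical transcript overlapped FAS in ACTA2, with 912 parental and 313 KO reads of FAS, and TPM1-AS in TPM1, with 13 and 35 reads of TPM1-AS, both on the opposite strand. Whether the authors' counting used strand is not given in the sources used here, so the division of reads between these overlapping genes is uncertain, most of all for TAGLN.

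The 5 nearest expressed protein-coding genes on either side of each member were compared with it. For 6 members, ACTA2, ACTG2, MYH11, CNN1, TAGLN and MYL9, the fold lay over 3-fold away from the median of the neighbours. They are the same 6 that were called lower. The share of all genes tested that lie this far from their neighbours was not computed. Around ACTA2 the neighbours had a median log2 fold change of -1.65, with 6 of 10 lower, FAS and LIPA among them, and ACTA2 differed from that median by -7.95. FAS and LIPA were named after their values were seen. The neighbours of ACTG2 had a median of -0.45 with 0 past the threshold, and those of MYH11 a median of 0.42. Around MYLK the median was 1.04, with 3 of 10 higher, and MYLK exceeded it by 1.47. With 10 genes on either side the median around MYLK was 0.46 and MYLK exceeded it by 2.05, which passes 3-fold and makes 7 members. TPM1 sat among neighbours with a median of 0.74, of which 4 were higher and 1 lower.

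**Figure D4:**
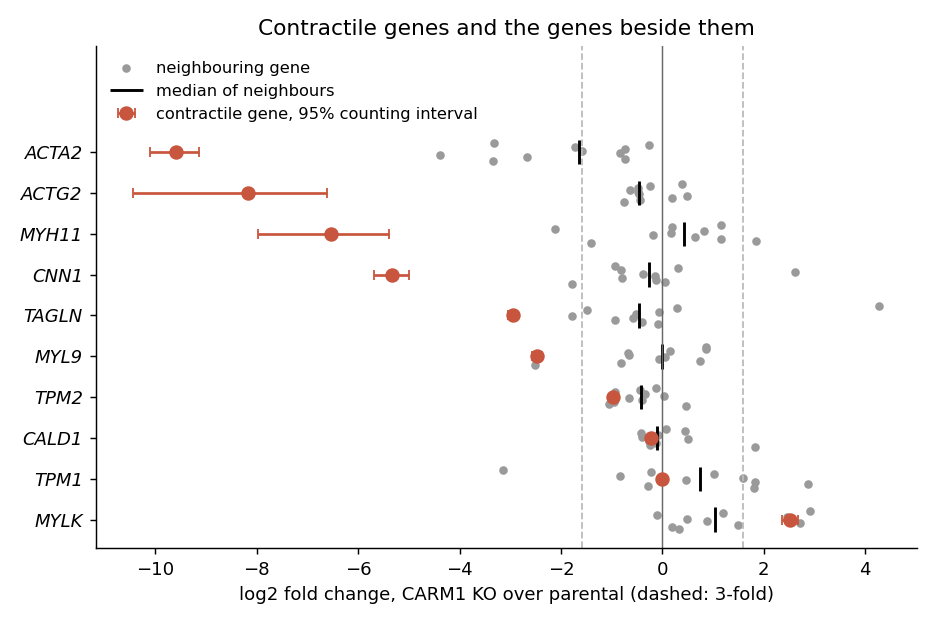
Log2 fold change of CARM1 KO over parental for each contractile gene, with its 95% counting interval, and for the 10 expressed protein-coding genes nearest to it, with their median and dashed lines at 3-fold. ACTA2 lies at -9.60 and its neighbours' median at -1.65, and MYLK lies at 2.51 with a neighbour median of 1.04.

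Factors known to act on contractile genes formed a list of 24, of which 4 were higher, 3 lower and 17 neither. The median log2 fold change was 0.06. The shares called, 16.7% higher and 12.5% lower, were near the 12.3% and 11.3% of all genes tested. SRF had 1702 parental and 681 KO reads and was 2.58-fold lower (interval 2.36 to 2.83), under the threshold. Its coactivators were under it as well, MRTFA being 1.63-fold lower (interval 1.38 to 1.94) and MRTFB 1.499-fold higher (interval 1.36 to 1.66), and myocardin, MYOCD, had 9 and 4 reads. SRF, MRTFA and MRTFB were named after their values were seen. NOTCH3, a receptor of mural cells, had 413 parental and 16 KO reads and was 26.7-fold lower (interval 16.2 to 47.1). TEAD2, which binds DNA for the YAP coactivator, had 950 parental and 286 KO reads and was 3.43-fold lower (interval 3.002 to 3.93). KLF5, a zinc-finger factor of epithelium and immature smooth muscle, had 541 parental and 2305 KO reads and was 4.13-fold higher (interval 3.75 to 4.54). HEYL, a Notch target, had 119 parental and 23 KO reads and was 5.34-fold lower (interval 3.40 to 8.75).

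Other genes of differentiated smooth muscle went both ways. Of 18 tested, 5 were higher, 4 lower and 9 neither, with a median of -0.12. These are 27.8% higher and 22.2% lower, beside 12.3% and 11.3% of all genes tested. LMOD1, which nucleates actin filaments in smooth muscle, had 506 parental and 9 KO reads and was 58.1-fold lower (interval 30.3 to 128). SYNPO2, an actin-binding protein of muscle, had 904 parental and 54 KO reads and was 17.3-fold lower (interval 13.1 to 23.2). CSRP1, a LIM protein of smooth muscle and other cells, had 732 parental and 5469 KO reads and was 7.24-fold higher (interval 6.70 to 7.83). DES, the muscle intermediate filament desmin, had 7 parental and 80 KO reads and was 11.1-fold higher (interval 5.13 to 28.4), while SMTN, smoothelin, was 1.48-fold higher (interval 1.34 to 1.64), under the threshold. FILIP1L had 232 parental and 1039 KO reads and was 4.34-fold higher (interval 3.76 to 5.02).

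Among 30 SRF targets, most of them of the general cytoskeleton, 4 were higher, 1 lower and 25 neither, with a median of 0.33. These are 13.3% higher and 3.33% lower, beside 12.3% and 11.3% of all genes tested. The list also held immediate early and secreted matrix genes, EGR1 and CCN1 among them. FHL2, a LIM protein that binds SRF, had 2483 parental and 13525 KO reads and was 5.28-fold higher (interval 5.05 to 5.51). CCN1, a secreted matrix protein, had 1960 parental and 8436 KO reads and was 4.17-fold higher (interval 3.97 to 4.38), and TAGLN2 is given above. The gene that was lower was EGR1, an immediate early gene named after its values were seen, with 152 parental and 17 KO reads, which was 9.23-fold lower (interval 5.58 to 16.3).

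Around MYLK and MYL9, 35 genes that set light chain phosphorylation were tested, and 2 were higher, 3 lower and 30 neither. Their median was 0.17. The shares called, 5.71% higher and 8.57% lower, were below the 12.3% and 11.3% of all genes tested. PRKG1, the cGMP-dependent kinase that relaxes smooth muscle, had 4162 parental and 125 KO reads and was 34.4-fold lower (interval 28.8 to 41.4). RND3, which opposes RhoA signalling, had 811 parental and 5060 KO reads and was 6.04-fold higher (interval 5.61 to 6.51). PPP1R14A, also called CPI-17, which inhibits myosin phosphatase, had 76 parental and 308 KO reads and was 3.92-fold higher (interval 3.04 to 5.11). The others past the threshold were MYLK3, given above, and RND1, a relative of RND3 named after its values were seen, with 52 parental and 10 KO reads.

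Markers of other cells moved beside the contractile genes. Of 15 fibroblast and pericyte markers tested, 3 were higher, 8 lower and 4 neither. These are 20.0% higher and 53.3% lower, beside 12.3% and 11.3% of all genes tested. The summed reads of the 15 markers were 48754 in parental and 5075 in CARM1 KO cells. The fibroblast receptor PDGFRA had 14326 parental and 2 KO reads, and the collagen gene COL1A2 had 16732 parental and 3 KO reads. COL3A1 had 14587 and 1, THY1 678 and 4, and DCN 24 and 0. LUM had 61 and 1, while PDGFRB, with 132 and 142, was neither. COL1A1, whose protein pairs with that of COL1A2, went the other way and was 3.97-fold higher (interval 3.27 to 4.84). The pericyte markers were divided. MCAM, a marker of pericytes and smooth muscle, was 3.94-fold higher (interval 3.59 to 4.33). RGS5 had 232 parental and 30 KO reads and was 7.99-fold lower (interval 5.4 to 12.1), and CSPG4, with 170 and 453 reads, was neither. Whether either library held any such cells, or the A1847 cells made these RNAs themselves, was not tested, nor was any part in the contractile gene levels.

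Of 10 epithelial ovarian cancer markers tested, 7 were higher, 1 lower and 2 neither, with summed reads of 43995 in parental and 151529 in CARM1 KO cells. The keratins of simple epithelium KRT7 and KRT8 were 5.84-fold higher (interval 5.66 to 6.03) and 3.87-fold higher (interval 3.81 to 3.94). MSLN, a surface protein of ovarian tumours, was 5.72-fold higher (interval 4.92 to 6.68), and PAX8, a Müllerian factor, was 3.58-fold higher (interval 3.15 to 4.07). CDH1, the epithelial cadherin, had 3 parental and 53 KO reads and was 17.1-fold higher (interval 5.54 to 85.6). Of the other markers of the labelled cell type, EPCAM had 249 parental and 848 KO reads and was 3.30-fold higher (interval 2.86 to 3.81). KRT18 had 21154 parental and 51223 KO reads, a rise under the threshold. MUC16, with 0 and 1 reads, and WT1, with 8 and 1, were near absent. KRT19 had 45 parental and 0 KO reads. Of 4 leukocyte and endothelial markers tested, 2 were higher and 0 lower, CD68 with 400 parental and 1644 KO reads and CD14 with 1 and 9. The defining markers of these cells were at or near 0, with 6 and 0 reads of PTPRC, 0 and 0 of CDH5 and 1 and 2 of VWF. The part of these shifts in the contractile gene levels was not tested.

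Of 31 skeletal and cardiac muscle genes, 10 had 0 reads in both libraries, the skeletal muscle factors MYOD1 and MYOG among them, and 11 were tested. ACTC1 and DES were higher. The shares called were 18.2% higher and 27.3% lower, beside 12.3% and 11.3% of all genes tested. MYL7, an atrial light chain, had 70 parental and 0 KO reads and was lower. The troponin I genes TNNI3, with 25 parental and 5 KO reads, and TNNI1, with 16 parental and 2 KO reads, were lower, TNNI1 being named after its values were seen, and the other 6 were neither.

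**Figure D5:**
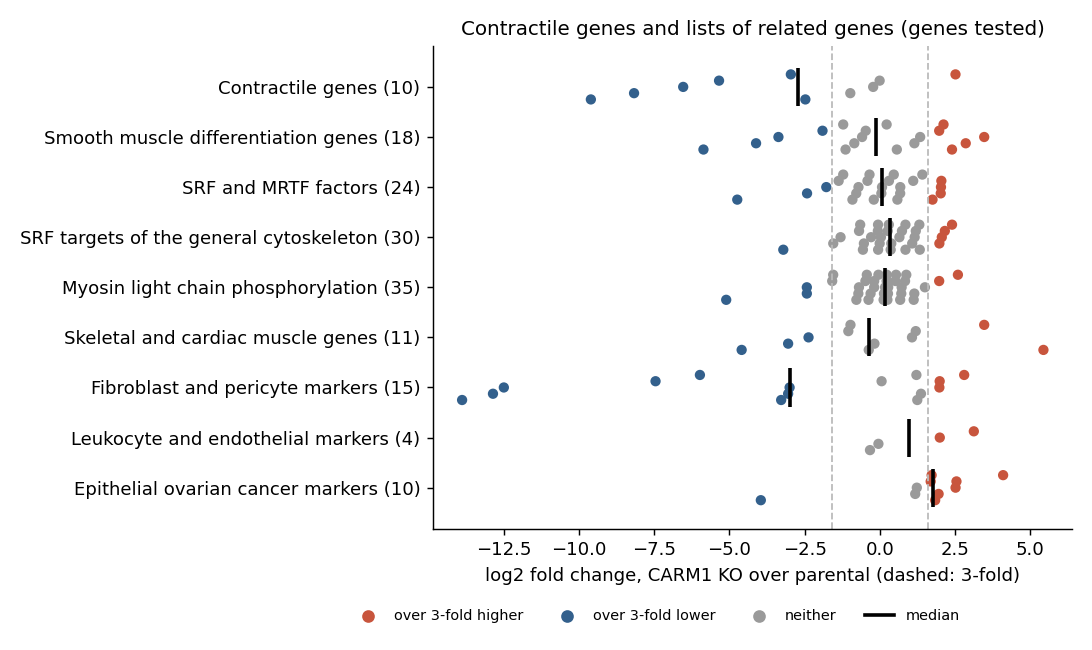
Log2 fold change of CARM1 KO over parental for the 10 contractile genes and for lists of related genes, 1 point per gene tested, with the median of each list and dashed lines at 3-fold. The contractile genes have a median of -2.71 and the fibroblast and pericyte markers -2.9975. The SRF targets, most but not all of the general cytoskeleton, have 0.33 and the epithelial markers 1.78.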

How the data were processed

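RNA from parental and CARM1 KO A1847 cells was sequenced in 75 bp paired-end reads from ScriptSeq libraries, 1 per group. The authors aligned reads with bowtie2 to hg19 and estimated counts per Ensembl gene with RSEM (version 1.2.3 in the submitters' processing notes, while the study's methods name another version), and deposited raw whole-number counts. RSEM divides shared reads between genes. Ensembl release and strand setting are not given in the sources used here.

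Identifiers were matched to GENCODE 44 lifted to GRCh37 (55501 of 57736). Genes with 10 or more reads over the libraries were scaled by TMM (edgeR 4.0.16, R 4.3.3). Fold intervals are exact 95% binomial (scipy 1.17.1). A gene with 0 reads in one library was set to 3 reads there, the limit that a count of 0 allows. The quasi-likelihood test needs replicates, so with 1 library per group no p-value is given. PECAM1 was not matched.

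The members, lists and thresholds were chosen with earlier results of these data known. Named genes are the members, CARM1, the members' paralogs and up to 4 genes past the threshold with the most reads from each list. The values of 1 gene under this rule are not reported here. Genes named outside this rule are marked or are defining markers and overlapping genes. Alternatives were DESeq2 1.42.0 size factors, other scalings, read minimums, a prior count of 2, edgeR's exact test at assumed coefficients, and a fold of 2.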

Additional observations from a re-analysis of the deposited data

How the results depend on the processing

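Scaling by library size, DESeq2 size factors, upper quartile or protein-coding reads, minimums of 1 or 50 reads and a prior count of 2 left 6 contractile genes lower and 1 higher. Of 110 comparisons of a single contractile gene with an alternative, 108 stayed on the same side of the threshold, and 2, MYL9 and MYLK at a coefficient of variation of 0.4, no longer passed. ACTA2 ranged from -9.66 to -9.53 and ACTG2, with 3 reads in CARM1 KO cells, from -8.22 to -7.42 on the log2 scale. At a coefficient of 0.4 the members higher numbered 0, all genes higher 532, all genes lower 894 and genes higher in the related lists together 7 in place of 1, 2280, 2092 and 27, as this test assumes a wider spread. At least 50 reads gave 1248 lower genes, and a fold over 2 gave 3225 lower genes and 46 higher genes in the lists. Among choices made after seeing the data, requiring the whole interval past 3-fold gave 1264 higher and 1245 lower genes, and at least 500 reads gave 686 and 521. With 1 other base allowed, 4 members had a CArG box in place of 2. Of 160 counts for single lists under the alternatives, 24 moved by over 1.5 times. No paired analysis was possible because each group holds 1 library, and for the same reason no library could be left out. Genes with few reads in CARM1 KO cells, such as MYH11 and ACTG2, have wide intervals.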

Other observations

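TNNT1, the slow skeletal muscle troponin T, was abundant in both libraries of these ovarian cancer cells, with 6145 parental and 4918 KO reads, and was 1.29-fold lower (interval 1.24 to 1.34) in the knockout, under the threshold. TNNC1, the troponin C of slow and cardiac muscle, had 455 parental and 1075 KO reads and was 2.29-fold higher (interval 2.05 to 2.56), also under it. Both were named after their values were seen.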
